A study of Arabidopsis thaliana with 8 samples.

Results

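The sites described here are the transposase hypersensitive sites (THSs) of the Arabidopsis thaliana pericentromeres, the gene-poor stretches on either side of each centromere. A THS is a stretch of DNA in which ATAC-seq, a method that lets a transposase cut and tag open DNA, found more cuts than expected. A site was taken as pericentromeric when its midpoint lay between 11.5 and 17.7 Mb of Chr1, 1.1 and 7.2 Mb of Chr2, 10.3 and 17.3 Mb of Chr3, 1.5 and 6.3 Mb of Chr4, or 9.0 and 16.0 Mb of Chr5. This gave 14545 of the 157063 sites in 6 lists. Of these, 18 sites were wider than 10 kb and are described apart, which left 14527 sites. The windows made up 31.1 Mb, or 26.1% of the span of the 5 chromosomes, and the remaining 88.04 Mb are called the arms.

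Pericentromeric DNA of Arabidopsis is packed as heterochromatin. It is rich in transposable elements and in satellite and other repeats, and it carries dense DNA methylation and repressive histone marks that are known to keep most of it silent. Protein-coding genes lie scattered within it, and open chromatin in plants is known to lie mainly next to such genes, at promoters and at other regulatory DNA.

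The cells came from inflorescence apices of DRNL::erGFP ap1cal plants grown on soil in long days for 4 to 5 weeks. Mutation of AP1 and CAL, which encode MADS-box factors of floral identity, makes the apices produce meristems in place of flowers. GFP-positive cells were the lateral organ founder cells, marked by a reporter driven by the promoter of DRNL, which encodes an AP2-type transcription factor. GFP-negative cells were the neighbours sorted from the same tissue, and all cells of both groups carried the reporter and the ap1cal mutations. Apices of about 700 to 900 plants were pooled for a sort. Each group had 3 libraries, described as biological replicates, and 2 libraries of sheared control DNA were not analysed here. Read counts were not part of the lists, and sequencing depth is therefore unknown.

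The gene table matched the label of the windows. They held 108.8 protein-coding genes and 121.4 pseudogenes per Mb, against 273.3 and 12.11 per Mb on the arms. The sort was checked on the share of each marker gene, with 1000 bp on either side, that sites covered. DRNL was covered over 55.67, 58.99 and 66.82% in GFP-positive libraries and over 39.08, 35.77 and 29.13% in GFP-negative libraries. AP1 and CAL were also covered more widely in all 3 GFP-positive libraries than in any GFP-negative library. Library totals lay between 24156 and 26216 sites in GFP-positive libraries and between 26001 and 28757 in GFP-negative libraries.

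GFP-negative replicate 1 stood apart within the pericentromere. Of its pericentromeric sites, 3.14% (79 of 2516) overlapped no site of another library, against 0.558% (131 of 23481) of its sites on the arms. GFP-negative replicate 2 had 1.71% in the pericentromere and 1.02% on the arms. In the other 4 libraries the shares in the pericentromere and on the arms were closer, such as 2.94 and 2.59% in GFP-positive replicate 2 and 3.16 and 3.46% in GFP-negative replicate 3. Results that rest on GFP-negative replicate 1 are given without it as well.

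Pericentromeric sites were sparse. The GFP-positive libraries held 70.8, 78.8 and 71.8 pericentromeric sites per Mb, and the GFP-negative libraries 80.9, 79.2 and 85.6. On the arms the 6 libraries lay between 249.3 and 296.3 sites per Mb, so that no library of either group came near its arm density in the pericentromere. The mean was 77.9 ± 5.63 sites per Mb in the pericentromere and 270 ± 15.2 on the arms (SD, n = 6 libraries). The density was lower in the pericentromere in 6 of 6 libraries (exact sign-flip test over libraries, two-sided, p = 0.03125, the smallest p that 6 libraries allow). By chromosome, Chr5 had the densest pericentromere with 87.5 ± 7.58 sites per Mb and Chr2 the sparsest with 62.8 ± 6.27 (SD, n = 6). Chr1 had 84.7 ± 5.91, Chr3 76.7 ± 5.86 and Chr4 75.8 ± 2.45 sites per Mb. The ranges over libraries overlapped between Chr1 (77.26 to 93.06) and Chr5 (78.0 to 98.29), and between Chr3 and Chr4. Chromosomes were not compared within a library, so whether these pairs differ was not tested.

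Pericentromeric sites were also narrower on average and ranked lower in their lists. Their mean width was 593.7, 613.8 and 555.6 bp in GFP-positive libraries and 581.8, 573.2 and 545.2 bp in GFP-negative libraries. The mean over the 6 libraries was 577 ± 25.1 bp in the pericentromere and 699 ± 28.9 bp on the arms, lower in 6 of 6 libraries (exact sign-flip test, p = 0.03125). This holds for sites of at most 10 kb. With the sites over 10 kb included, the difference was -6.03 bp with p = 0.406 in the same exact test. The median width was 500 bp on the arms in all 6 libraries and between 400 and 500 bp in the pericentromere. Sites wider than 1 kb made up 9.47 ± 1.14% of pericentromeric sites and 17.2 ± 1.33% of arm sites (SD, n = 6). The authors' score per site, whose scale is not stated, was used only as a rank within its own list, from 0 to 100. The median rank was 42.7 ± 0.463 in the pericentromere and 50.8 ± 0.0408 on the arms, lower in 6 of 6 libraries (exact sign-flip test, p = 0.03125). Width followed rank in both compartments. By band of 25% of ranks, from lowest to highest, mean widths were 306.2, 435.4, 631.8 and 1210 bp in the pericentromere. On the arms they were 306.1, 446.2, 652.1 and 1361 bp.

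**Figure D1:**
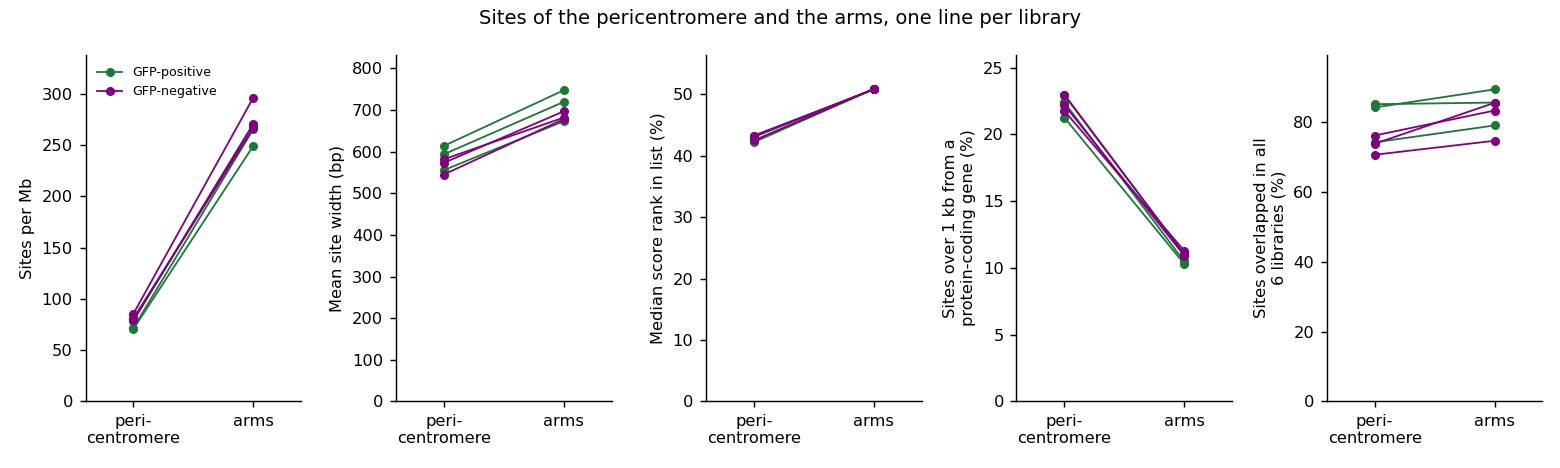
Sites per Mb, mean site width in bp, median score rank in percent, share of sites over 1 kb from a protein-coding gene and share of sites overlapped in all 6 libraries. Each line joins the pericentromeric value of a library (left) to its arm value (right), green for GFP-positive and purple for GFP-negative. In all 6 libraries the density is lower in the pericentromere (mean 77.9 sites per Mb) than on the arms (mean 270), and the share far from genes is higher.

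Called sites were unevenly spread along the windows. How reads from repeats were handled is not stated, so a stretch without a site need not be closed. Of 311 pericentromeric bins of 100 kb, 41 held no site in any library and 4 more held only part of a site over 10 kb. On the arms 0 of 882 bins held no site. With sites of at most 10 kb, the median bin was covered over 2.98% of its length in the pericentromere and 18.1% on the arms (mean of the 6 libraries for each bin). The longest stretch without a site in any library was Chr3:12670501-13489300, which spans 818.8 kb and holds 31 protein-coding genes and 160 pseudogenes. The longest on the other pericentromeres were 459.9 kb on Chr5, 342.4 kb on Chr4, 227.6 kb on Chr1 and 203.9 kb on Chr2. On the arms no stretch without a site was longer than 75.1 kb. At the window limits the change was gradual, since the 10 bins just inside were covered over 12.4 ± 0.959% and the 10 bins just outside over 13.7 ± 0.969% (SD over 6 libraries).

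Counting sites of at most 10 kb, the pericentromeric bin with the highest covered share lay on Chr1 between 11.6 and 11.7 Mb, close to the window limit. It was covered over 24, 26.6 and 22.4% in GFP-positive libraries and over 24.3, 22.2 and 25.3% in GFP-negative libraries. The 250.2 kb site on Chr2, described below, was left out of this order. Next in order were a bin on Chr4 between 5.7 and 5.8 Mb and a bin deep in the Chr4 window, between 3.9 and 4.0 Mb. The bin at 3.9 to 4.0 Mb was covered over 23.1, 18.8 and 22.9% in GFP-positive libraries and over 26.4, 16.3 and 14.5% in GFP-negative libraries, and the groups overlapped. The handling of reads from repeats is not stated, so the coverage of this bin is uncertain.

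**Figure D2:**
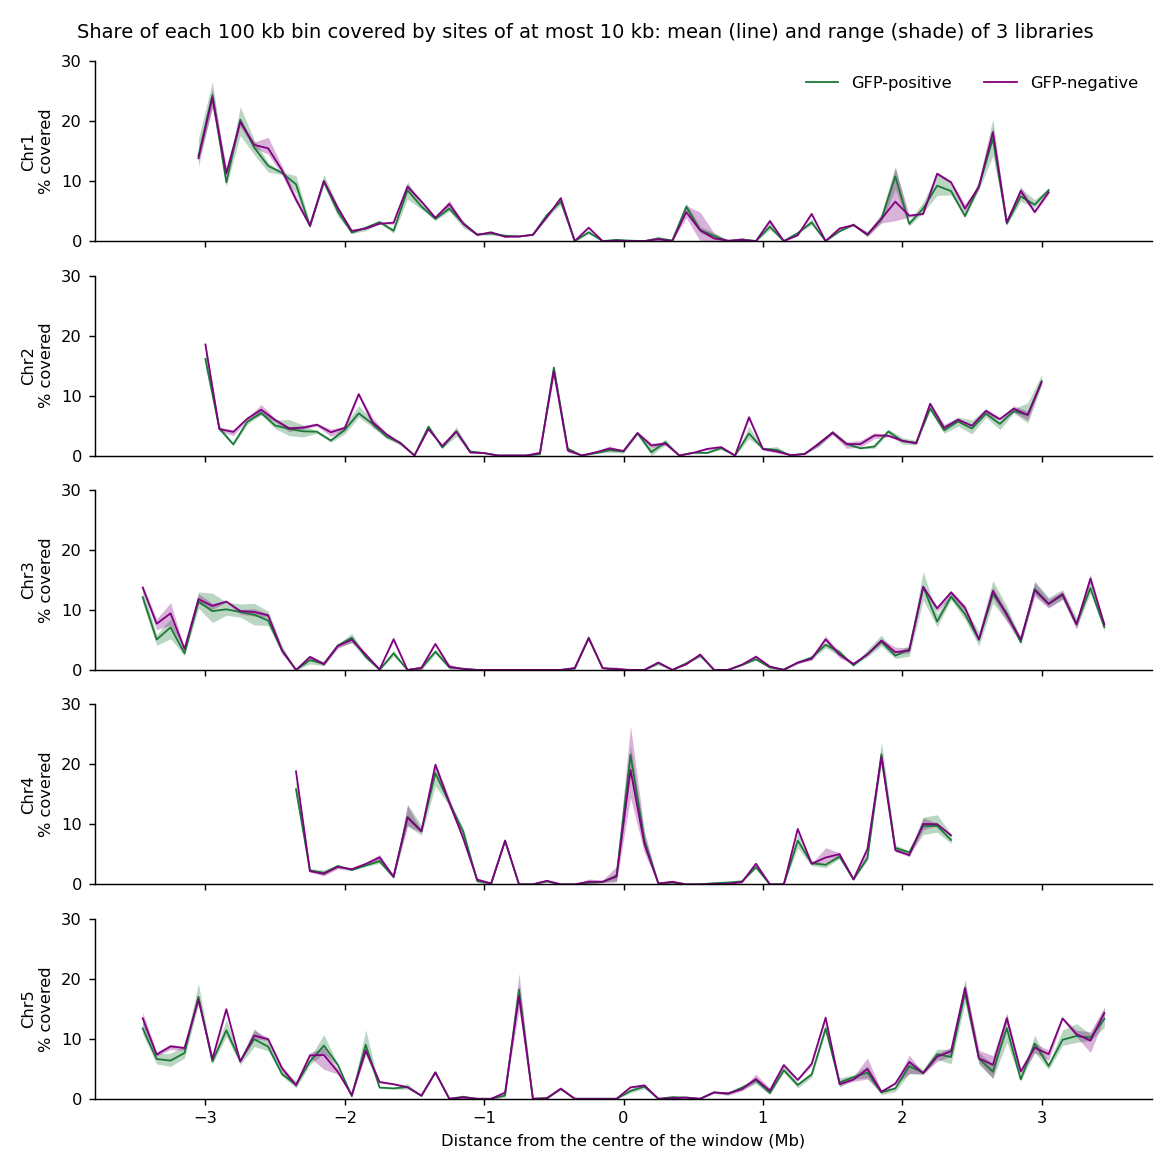
Share of each 100 kb bin covered by sites of at most 10 kb (percent, vertical axis) against the distance from the centre of the window in Mb, with a panel for each chromosome. Lines are means and shades the range of 3 libraries, green for GFP-positive and purple for GFP-negative. Coverage is highest near the window limits and close to 0 around the centres, apart from single peaks such as the Chr4 bin at 3.9 to 4.0 Mb, and the lines of the groups run close together.

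Most pericentromeric sites lay at protein-coding genes. Sites that overlapped or touched the body of such a gene, even in part, made up 59.7 ± 0.88% of pericentromeric sites (SD, n = 6). Gene bodies fill 21.8% of the windows, a share of base pairs that compares with the covered base pairs below and not with shares of sites. On the arms 71.1 ± 1.04% of sites lay over a gene body. Of the covered base pairs, 34.8 ± 0.776% in the pericentromere and 37.6 ± 0.481% on the arms lay in gene bodies, which fill 65.5% of the arms. Another 18.0 ± 0.795% of pericentromeric sites lay within 1 kb of a gene. Sites over 1 kb from any protein-coding gene made up 22.3 ± 0.669% in the pericentromere and 10.8 ± 0.368% on the arms, higher in 6 of 6 libraries (exact sign-flip test, p = 0.03125). Sites over 5 kb away made up 7.32 ± 0.694% in the pericentromere and 0.296 ± 0.0271% on the arms.

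Pseudogenes were nearly bare of called sites. Repeat content could not be checked and the handling of reads from repeats is not stated, so their DNA cannot be called closed. They fill 26.4% of the pericentromeric windows, yet held 1.79 ± 0.428% of the covered base pairs there (SD, n = 6). DNA with none of the annotated classes and more than 1 kb from a protein-coding gene fills 36.3% of the windows and held 23.5 ± 0.619% of the covered base pairs. The DNA within 1 kb of genes fills 14.7% and held 38.6 ± 0.674%. Pseudogenes held 1.91 ± 0.276% in GFP-positive cells and 1.66 ± 0.58% in GFP-negative cells (SD, n = 3 each; exact permutation test, two-sided, p = 0.6). Gene bodies held 34.74, 34.79 and 33.33% in GFP-positive libraries and 35.23, 35.52 and 35.19% in GFP-negative libraries. The groups did not overlap there (exact permutation test, two-sided, p = 0.1, the smallest p that 3 against 3 libraries allow).

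**Figure D3:**
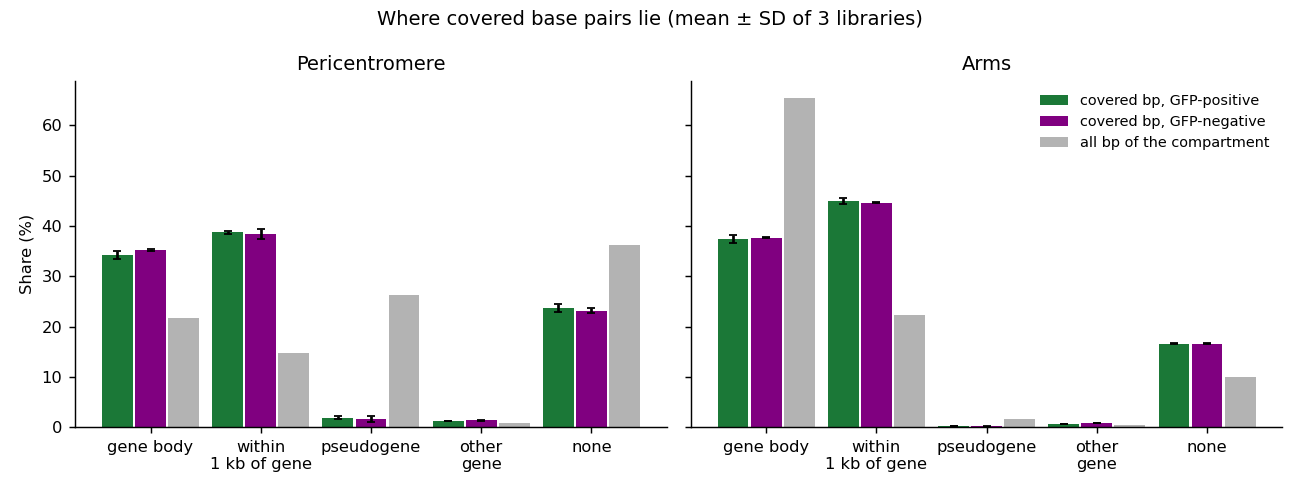
Share in percent of the covered base pairs that lie in each annotation class, for GFP-positive (green) and GFP-negative (purple) libraries, beside the share of all base pairs of the compartment (grey), for the pericentromere (left) and the arms (right). Bars are means and whiskers SDs of 3 libraries. Pseudogenes fill 26.4% of the pericentromere but hold under 2% of its covered base pairs in each group.

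Pericentromeric protein-coding genes carried a site less often than those on the arms. Of 3383 pericentromeric protein-coding genes, 36.57, 39.4 and 35.35% had a site over the gene body in GFP-positive libraries and 39.31, 38.49 and 40.29% in GFP-negative libraries. The mean was 38.2 ± 1.89% in the pericentromere and 66.3 ± 1.96% for 24061 genes on the arms (SD, n = 6). Pseudogenes not typed as transcribed had one in 1.58 ± 0.204% of 3346 pericentromeric cases and 12.9 ± 1.05% of 571 on the arms. For transcribed pseudogenes, counted as pseudogenes above, the shares were 9.75 ± 0.623% of 431 and 23.9 ± 1.44% of 495. With sites over 10 kb left out, all 9 classes with at least 10 genes in each compartment were lower in the pericentromere in 6 of 6 libraries (exact sign-flip test, adjusted p = 0.03125 over the 9 classes). With those sites included 8 of the 9 were. Genes for tRNAs, which carry amino acids to the ribosome, turned: the share with a site was 75.8 ± 1.02% of 62 pericentromeric genes and 72.2 ± 1.08% of 563 arm genes, higher in 6 of 6 libraries (exact sign-flip test, adjusted p = 0.03125), against 38.7 ± 1.02% in the pericentromere without the wide sites, which hold 23 of the 62. With 1 kb on either side of the gene added, 49.3 ± 2.26% of pericentromeric and 80.4 ± 1.7% of arm protein-coding genes had a site. For these windows the difference was -31.1 points, and -28.3 points with the sites over 10 kb included.

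The lower coverage of the pericentromere also held between bins with like numbers of genes. Bins that overlap a site over 10 kb were left out. Among bins with 20 to 24 protein-coding genes, 32 pericentromeric bins were covered over 9.51 ± 0.761% and 193 arm bins over 18.7 ± 1.11% (SD, n = 6 libraries). Among bins with 25 or more genes, 20 pericentromeric bins were covered over 10.95 ± 0.77% and 642 arm bins over 19.0 ± 1.04%. This open-ended range held 27.05 genes per bin on average in the pericentromere and 29.39 on the arms. In each of these ranges the pericentromere was lower in 6 of 6 libraries (exact sign-flip test, p = 0.03125). Bins with fewer than 10 genes occurred in the pericentromere alone, where those with 0 to 4 genes were covered over 1.4 ± 0.17%.

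**Figure D4:**
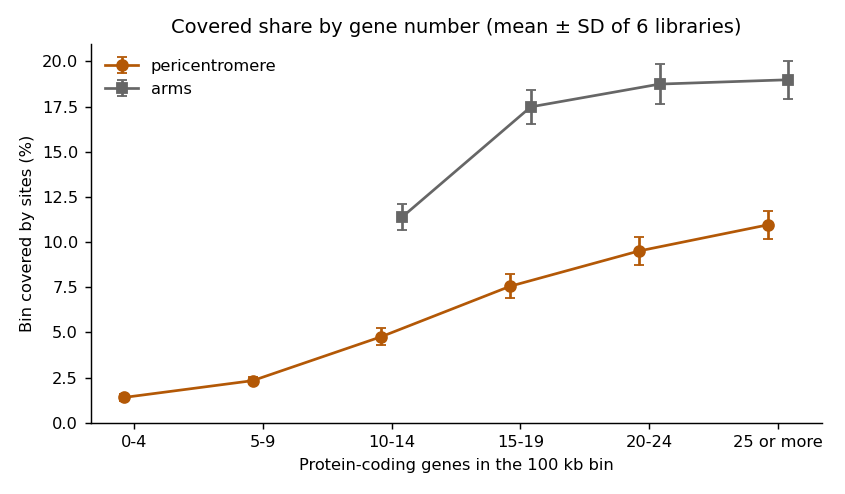
Share of 100 kb bins covered by sites (percent) against the number of protein-coding genes in the bin, for the pericentromere (circles) and the arms (squares); points are means and whiskers SDs of 6 libraries. Coverage climbs with gene number in the pericentromere to 10.95% and stays below the 19.0% of arm bins with as many genes; only 2 arm bins have 10 to 14 genes and none has fewer.

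The sites with the highest score ranks in all 6 libraries included several far from genes. Repeat content could not be checked and the handling of reads from repeats is not stated. The ranks and coverage of sites far from genes are therefore uncertain. The first by rank was Chr3:13589801-13592600, 59702 bp from the nearest protein-coding gene, with a median rank of 99.98. It was covered over 100% in all 3 GFP-positive libraries and over 100, 100 and 96.43% in the GFP-negative libraries. The widest was Chr4:3054301-3061600, over a pseudogene and 3 small transcribed loci, with 7.2, 7.3 and 7.2 kb of sites in GFP-positive libraries and 7.2, 7.2 and 7.0 kb in GFP-negative libraries. Neighbouring regions at Chr5:11726001-11730000 and Chr5:11730201-11734100 lay 89362 and 93562 bp from a protein-coding gene and had ranks of 99.87 and 99.92.

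Other regions among the 10 with the highest ranks lay over genes. The region at Chr5:13934801-13940500 covered AT5G35760 and SAP (STERILE APETALA), which encodes an F-box protein needed for flower development. The region at Chr4:5738201-5742800 covered EXO (EXORDIUM), a gene of brassinosteroid-linked growth. The groups overlapped in covered share at EXO, with 86.96, 97.83 and 93.48% in GFP-positive and 86.96, 86.96 and 91.3% in GFP-negative libraries. The region shared by all libraries that lay farthest from a protein-coding gene was Chr5:11765701-11766000, at 129062 bp, over a transcribed pseudogene, and it was covered in full in all 6 libraries.

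Each library held 3 pericentromeric sites over 10 kb, with the same limits in all 6 lists. The widest, Chr2:3259601-3509800, spans 250.2 kb and 172 annotated genes, 85 of them protein-coding and 22 for tRNAs. This part of Chr2 is known as a large insertion of mitochondrial DNA into the nuclear genome. The site at Chr2:3239001-3258600 lies just before the 250.2 kb site, spans 19.6 kb and includes ABCI5, which encodes an ABC transporter subunit. The site at Chr3:14191701-14205200 spans 13.5 kb and includes the ribosomal RNA genes AT3G41768 and AT3G41979. The widest site below the limit spanned 7.3 kb, so none lay between 7.3 and 13.5 kb in the pericentromere.

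These 3 sites held places 1, 2 and 3 by score in every list. Per 100 bp, the score of the 250.2 kb site was 20.0 ± 1.87 times the median of the other sites in GFP-positive libraries and 19.3 ± 0.8 times in GFP-negative libraries (SD, n = 3 each; exact permutation test, p = 0.7). For the rRNA site the values were 18.4 ± 1.79 times in GFP-positive cells and 18.7 ± 1.47 times in GFP-negative cells (p = 0.7, exact permutation test). The groups overlapped at all 3 sites. Mitochondrial DNA and rRNA genes occur in many near-identical copies in a cell, and lists without reads cannot assign these sites to a copy, so their scores are uncertain.

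Sharing between libraries was lower in the pericentromere. Of the pericentromeric sites, 84.3, 74.3 and 85.2% in GFP-positive libraries and 73.9, 76.2 and 70.7% in GFP-negative libraries overlapped a site in every other library. The mean was 77.4 ± 5.94% in the pericentromere and 83.0 ± 5.28% on the arms, lower in 6 of 6 libraries (exact sign-flip test, p = 0.03125). Sharing of a library is measured against the others, so the 6 differences depend on each other. The p-values for sharing therefore do not rest on 6 separate observations. Without GFP-negative replicate 1 the difference was -4.86 points in place of -5.56, and 5 libraries cannot reach a p below 0.0625 in this test. The call was lost with windows wider by 500 kb (-3.78 points, p = 0.0625, exact) and with an overlap of at least 50% (-6.0 points, p = 0.0625, exact). Sharing followed the score in both compartments. In the top 25% of ranks 99.7 ± 0.334% of pericentromeric and 99.95 ± 0.0542% of arm sites were shared, and in the bottom 25% 38.65 ± 14.9% and 42.9 ± 15.6%. Within none of the 4 bands of rank did the compartments pass the exact sign-flip test, with p between 0.0625 and 0.375.

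Merging the sites of all 6 libraries gave 26792 regions, 2758 of them pericentromeric. Of the pericentromeric regions, 1710 (62.0%) were present in all 6 libraries and 290 (10.5%) in a single library. On the arms the shares were 71.0 and 8.31%. Base-pair overlap between 2 libraries, measured as the Jaccard index (shared over total covered base pairs), was 0.748 ± 0.0168 within a group (SD, 6 pairs) and 0.702 ± 0.0145 between groups (9 pairs) in the pericentromere. The difference of 0.046 had p = 0.1 in an exact permutation of the group labels, the smallest p that 3 against 3 libraries allow. On the arms the values were 0.801 ± 0.00743 within and 0.766 ± 0.0107 between groups.

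GFP-positive libraries held fewer pericentromeric sites than GFP-negative libraries. There were 2202, 2451 and 2233 sites in GFP-positive libraries and 2516, 2463 and 2662 in GFP-negative libraries. The groups did not overlap, with the highest GFP-positive value just under the lowest GFP-negative one. The means were 2295 ± 136 and 2547 ± 103 (SD, n = 3 each), a difference of -252 sites (exact permutation test, two-sided, p = 0.1, the smallest possible). With the same number of top-scoring sites, 24156, taken from every library, the difference was -36.0 sites (p = 0.6, exact permutation test). As a share of all sites of a library the groups overlapped, with 9.06 ± 0.321% in GFP-positive cells and 9.43 ± 0.219% in GFP-negative cells (p = 0.2, exact permutation test). The difference of -0.372 points in these shares was -0.249 without GFP-negative replicate 1, -0.199 without GFP-positive replicate 3 and -0.149 with equal numbers of sites (p = 0.6, exact permutation test). Covered length came to 1351 ± 137 kb in GFP-positive cells and 1442 ± 27.0 kb in GFP-negative cells (p = 0.4, exact permutation test). That difference of -91.4 kb was -168 kb without GFP-positive replicate 2, -36.4 kb without GFP-positive replicate 3 and -31.8 kb with equal numbers of sites, with p between 0.1 and 0.8 in the exact permutation test. Mean width, score rank, distance to genes and genes with a site had p between 0.2 and 0.9 in the same exact test on the full lists.

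Regions called in all 3 libraries of a group and in none of the other were few. In the pericentromere 16 of 2758 regions (0.58%) were of this kind in GFP-positive cells, against 0.418% of all regions of the genome. In GFP-negative cells there were 98 (3.55%), against 2.1% of all regions. Leaving out a library loosens this rule, because fewer libraries must hold or lack a site. Higher counts without a library therefore do not show that the result rests on that library. Without GFP-negative replicate 1 the counts were 29 and 149. Leaving out GFP-positive replicate 2, the GFP-positive library with the most sites, gave 160 regions of GFP-negative cells alone. Leaving out GFP-positive replicate 1, GFP-positive replicate 3 or GFP-negative replicate 3 gave 28 regions of GFP-positive cells alone in each case.

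**Figure D5:**
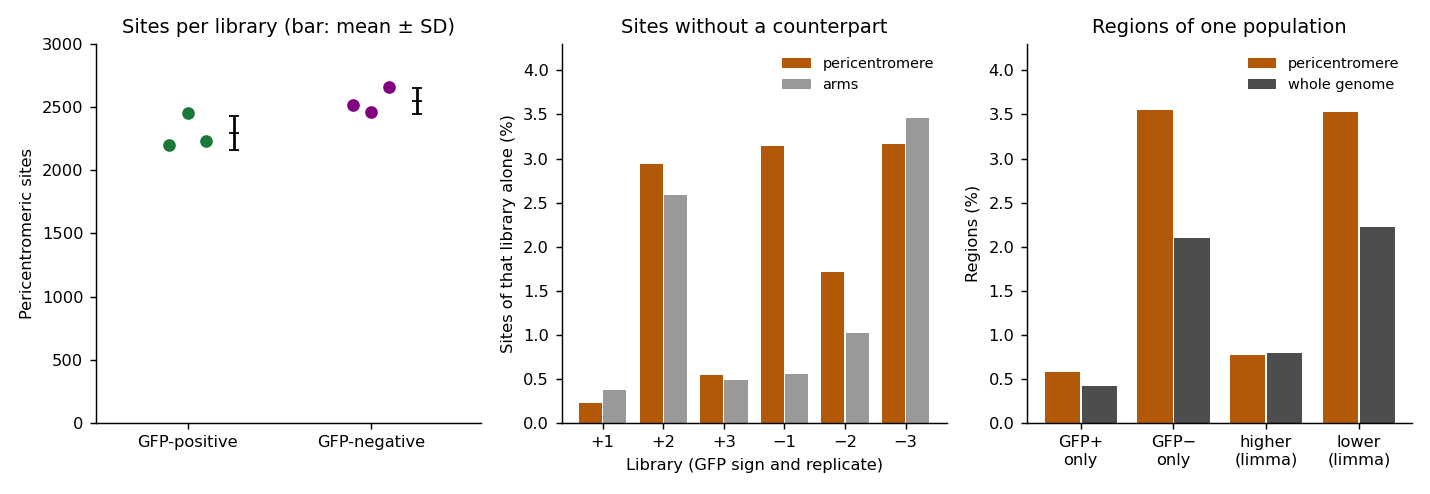
Left, pericentromeric sites per library, with the mean ± SD of 3 libraries beside the points. Middle, share in percent of the sites of each library that overlap no other library, in the pericentromere and on the arms (+ and − give the GFP group, digits the replicate). Right, regions of a single group and regions called by limma, in percent of the pericentromeric regions and of all regions. GFP-negative replicate 1 has 3.14% in the pericentromere beside 0.558% on the arms, and the GFP-negative-only bar reaches 3.55% in the pericentromere beside 2.1% in the genome.

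Of the 16 GFP-positive-only regions, 5 lay over a protein-coding gene, 5 within 1 kb of one and 6 (37.5%) farther away, against 21.6% farther away among the pericentromeric regions tested. The region at Chr1:17556901-17557200, over SERPIN1, which encodes a protease inhibitor, was covered over 100% in all 3 GFP-positive libraries and 0% in all 3 GFP-negative libraries. A region 259 bp from YAK1, which encodes a protein kinase, had 75, 100 and 75% in GFP-positive libraries and 0% in the GFP-negative ones. The region over MIR169c, which encodes a microRNA that targets NF-YA transcripts, had 77.78, 100 and 55.56% in GFP-positive libraries and 0% in the GFP-negative ones, and its adjusted p in limma was 0.0569. Within 1 kb of MIR169c, other sites lay in all 3 GFP-negative libraries, as given below. Other such regions lay 2419 bp from HSFB4, which encodes a heat shock factor family member, 1157 bp from AGL44, which encodes a MADS-box factor, and over AGL102, another gene of that family. Their adjusted p-values in limma were between 0.0509 and 0.2. The 16 regions had a median score rank of 18.2, against 39.56 among the pericentromeric regions tested. The SERPIN1 and YAK1 regions had ranks of 6.13 and 8.15. Both lay in the bottom 25% of ranks, where 38.65 ± 14.9% of pericentromeric sites were shared by all 6 libraries. Of the 16 regions, 9 passed limma. The same coverage values had picked these regions, so that count gives no separate support for them.

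The GFP-negative-only regions included many with 100% coverage in all 3 GFP-negative libraries and 0% in all 3 GFP-positive libraries. One such region, Chr1:15976701-15977100, lay where GLR3.3, which encodes a glutamate receptor-like channel, meets PMI1, a gene of plastid movement. Others lay over ATHM2, which encodes the chloroplast thioredoxin m2, MGDC, which encodes a galactolipid synthase, and APK, which encodes an enzyme of sulfate assimilation. Each of these had an adjusted p of 0.000351 in limma, and all regions with the same full contrast share this value. The 98 regions had a median width of 500 bp and a median score rank of 20.0, and 65 of them passed limma. They were picked on the same coverage values that limma was fitted to, so passing gives no separate support. Regions over 1 kb from a protein-coding gene made up 35 of the 98, against 533 of 2468 pericentromeric regions tested.

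A fit of limma to the percent of each region covered tested 24505 regions of the genome, 2468 of them pericentromeric. In the pericentromere 19 regions (0.77%) were higher and 87 (3.53%) lower in GFP-positive cells, against 0.788 and 2.22% of all regions tested (adjusted p under 0.05, limma with Benjamini-Hochberg adjustment over all regions). Of these, 17 of the 19 and 81 of the 87 had the same value in all 3 libraries of a group, against 919 of the 2468 tested. Sites end on 100 bp steps, so libraries can tie exactly, and a small p need not mean a wide difference. The median difference was 0.0 points for the pericentromeric regions and for all regions. Counted by groups that do not overlap, 74 pericentromeric regions (3%) were higher and 199 (8.06%) lower, against 3.84 and 6.46% of all regions. With equal numbers of top-scoring sites, 30 of 2249 pericentromeric regions (1.33%) were higher and 65 (2.89%) lower, against 1.63 and 2.11% of all 22776 regions. The counts without GFP-negative replicate 1 were 33 and 157, and without GFP-negative replicate 3 there were 35 higher.

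Among the 10 named regions present in both groups, the one over RIPK, which encodes a kinase of the immune response, differed most widely. At Chr2:2286801-2287900 it was covered over 0, 18.18 and 0% in GFP-positive libraries and over 90.91, 90.91 and 100% in GFP-negative libraries. The fitted difference was -87.9 points (adjusted p = 0.00593, limma), and a fit with the replicate number as a block gave 0.11. At the other 9 the covered length differed by 1 to 3 steps of 100 bp. At LSH1, a gene of the ALOG family of plant transcription factors, the covered share was 100% in all GFP-positive libraries and 91.67% in all GFP-negative libraries (adjusted p = 0.000351, limma). Regions with 100% in a group and 0% in the other had the same adjusted p. At SLO2, which encodes a protein of mitochondrial RNA editing, it was 75% in all GFP-positive libraries and 100% in all GFP-negative libraries (adjusted p = 0.0049, limma), and the fit with the replicate number as a block gave 0.0726.

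Over bins of 100 kb, 13 of 260 pericentromeric bins tested (5%) were lower in GFP-positive cells and 0 higher, against 1.49 and 0% of all 1142 bins (adjusted p under 0.05, limma). At an unadjusted p under 0.05, 49 pericentromeric bins (18.8%) were lower and 6 (2.31%) higher, against 114 (9.98%) and 16 (1.4%) of all bins. On the arms 4 of 882 bins were lower. By groups that do not overlap, 42 pericentromeric bins (16.2%) were lower and 8 (3.08%) higher, against 9.37 and 1.75% of all bins. The median difference was -0.13 points in the pericentromere and -0.27 points over all bins. The bin with the smallest p, on Chr2 between 1.3 and 1.4 Mb, was covered over 1.6, 2.0 and 2.0% in GFP-positive libraries and over 3.3, 4.2 and 4.3% in GFP-negative libraries. The widest gap among the 13, between 2.2 and 2.3 Mb of Chr2, was 7.03 ± 1.1% in GFP-positive cells and 10.2 ± 0.208% in GFP-negative cells (SD, n = 3 each), and this bin holds RIPK.

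The count of lower bins depended on the libraries and on the number of sites. With equal numbers of top-scoring sites 1 pericentromeric bin was lower, and with the sites over 10 kb included 3 were. Without GFP-positive replicate 2 there were 35, without GFP-positive replicate 3 there were 5, without GFP-negative replicate 2 there were 8, and without GFP-negative replicate 3 there were 4. Whether the number of sites in a library had a part in these calls was not tested further.

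In the authors' deposited table of genes, 2169 of 24453 protein-coding genes with a site in GFP-positive cells (8.87%) were pericentromeric. For GFP-negative cells 1593 of 19837 were (8.03%), against 12.3% of all protein-coding genes. The table thus names more pericentromeric genes for GFP-positive cells, the opposite direction to the site lists. By those lists, a GFP-positive library had a site at 1622 ± 79.9 pericentromeric protein-coding genes, counted with 1 kb on either side. A GFP-negative library had one at 1715 ± 42.3, and the groups overlapped. Why the directions differ was not tested. Of the genes in the columns named dTHS-up and dTHS-down of the authors' deposited table, 7 of 113 protein-coding genes (6.19%) and 36 of 375 (9.6%) were pericentromeric, and 1 more dTHS-up gene there encodes a microRNA. The covered share of each gene with 1 kb on either side was read from the site lists of the same libraries, so the counts below are a description and not a test. Of the 36 dTHS-down genes, 27 were lower in all 3 GFP-positive than in any GFP-negative library, and 9 overlapped. Of the 8 dTHS-up genes, 3 were higher in this sense and 5 overlapped. Among all 37899 annotated genes, 4.73% were lower and 2.59% higher in this sense, and nothing is read from the difference because the authors' lists were made from these libraries.

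Of the dTHS-down genes of the pericentromere, 4 are described here, chosen after their values were seen. PRE1, which encodes a small bHLH protein of growth control, had 0% in all 3 GFP-positive libraries and 19.83, 32.36 and 32.36% in GFP-negative libraries. RBCS3B, which encodes a small subunit of Rubisco, had 8.208% in all 3 GFP-positive libraries and 21.89, 30.1 and 21.89% in GFP-negative libraries. PGLP1, which encodes an enzyme of photorespiration, averaged 3.68 ± 3.19% in GFP-positive cells and 15.35 ± 1.06% in GFP-negative cells (SD, n = 3 each). AT1G35560, also called TCP23, which encodes a TCP-family factor, averaged 61.6 ± 10.3% in GFP-positive cells and 86.0 ± 2.93% in GFP-negative cells. The groups did not overlap at any of these genes.

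The 3 dTHS-up genes with groups apart were GA2OX4, AT4G09530 and MIR169c. GA2OX4, which encodes an enzyme that inactivates gibberellins, had 81.08, 83.33 and 72.07% in GFP-positive libraries and 47.25, 60.76 and 56.26% in GFP-negative libraries. The region that overlaps it, Chr1:17695401-17700500, held 5.0 ± 0.1 kb of sites in GFP-positive and 2.87 ± 0.0577 kb in the GFP-negative ones (SD, n = 3 each), and it lies at the limit of the Chr1 window. AT4G09530, also called SAUR17, of a family of auxin-induced genes, had 15.5, 16.16 and 15.5% in GFP-positive libraries and 0% in all GFP-negative libraries. MIR169c had 66.36, 74.66 and 58.07% in GFP-positive libraries and 37.33, 29.03 and 37.33% in GFP-negative libraries. KAN2, a gene of abaxial organ identity, averaged 66.55 ± 1.4% in GFP-positive cells and 66.1 ± 3.24% in GFP-negative cells and overlapped, as did SEP4, which encodes a floral MADS-box factor.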

How the data were processed

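SICER, bedtools 2.17.0, Picard 1.105, SAMtools 0.1.19 and BWA 0.7, with TAIR10, are named by the submitters' processing notes. What each did, its settings, any transposase shift and what became of the controls is not stated. The authors deposited a list per library with chromosome, start, end and a score per site whose scale is not stated. Sites were whole 100 bp steps, and positions are printed counting from 1. A deposited table of gene lists holds identifiers (unit: other) and no values.

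The windows, members and lists were chosen with earlier results of these data known. Gene positions came from a RefSeq table (TAIR10.1). Overlapping or touching sites were merged into regions, counted as present where a library covered 1 bp or more. Regions and bins with coverage in at least 2 libraries were fitted with limma 3.58.1 (eBayes with trend, R 4.3.3). Exact two-sided tests over libraries used Python 3.11.15. The comparisons of bins by gene number, of covered base pairs by class, of genes with a site and of sharing by rank were added after the data had been seen. The code was tested on simulated data.

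Regions named were up to 15 of each group alone and 5 in each direction among those in both groups, by smallest p, the 10 with the highest ranks, those over 10 kb, the 5 farthest from a gene, and the authors' dTHS genes. The bins quoted, the widest region and the region at GA2OX4 were chosen after their values were seen. No genome sequence was given, so no sequence is printed. The closing section gives the alternatives.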

Additional observations from a re-analysis of the deposited data

How the results depend on the processing

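Differences between pericentromere and arms in density, width, rank, distance to genes and sharing kept their direction under every alternative run, and leaving out single libraries gave ranges of -194.6 to -188.2 sites per Mb, -126.7 to -120.0 bp, -8.21 to -7.97 points of rank, 11.3 to 11.6 points of sites over 1 kb from a gene and -5.62 to -4.66 points of sharing. The width difference was -6.03 bp with sites over 10 kb included, and the sharing difference missed the threshold at -3.78 points with wider windows and -6.0 points with 50% overlap. Between the groups, the difference in sites over 1 kb from a gene was -0.119 points and turned to 0.336 with narrower windows and to 0.436 with equal numbers of top-scoring sites, and leaving out single libraries gave -0.488 to 0.348. The width difference of 21.0 bp turned to -5.31 bp with equal numbers. Genes for tRNAs with a site turned from a difference of -33.5 points, pericentromere against arms, to 3.604 points with sites over 10 kb included, an alternative chosen after seeing the data. With equal numbers the rank difference was -3.97 points (p = 0.1, exact permutation test) in place of -0.449; ranks stayed those of the full lists, and the longer lists lost more of their lowest ranks. The other causes were not tested.

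Group-only regions numbered 7 for GFP-positive cells with the top 75% of scores and 25 with equal numbers of sites. Leaving out single libraries gave 18 to 29 for GFP-positive and 102 to 160 for GFP-negative cells. The rule is looser with fewer libraries, so a rise in these counts was built in. Regions higher in limma numbered 11 with the top 75% of scores and 30 with equal numbers, and 20 to 35 without single libraries, where the lower ones numbered 61 to 157. Lower bins numbered 1 with equal numbers, 3 with sites over 10 kb included and 4 to 35 without single libraries, where higher ones numbered 0 to 3.

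The replicate numbers name no shared source. Deviations of libraries with the same number correlated at 0.161, 0.036 and 0.0286, and not every library correlated best with its own number. With the replicate number as a block, 5 pericentromeric regions were higher and 22 lower, and 2 bins were higher and 27 lower. Of 34 named regions past the threshold, 21 passed with the block and 21 under every alternative fit. For site number and the other single values, 3 pairs cannot give an exact p below 0.25. Depth is unknown, so a region missing from a list may be open below its detection limit, and 3 against 3 libraries cannot give an exact p below 0.1.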
